A study of Mus musculus with 12 samples.

Results

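Prostaglandin E2 is made, broken down and sensed by a short series of proteins, and 6 genes of this series were followed here: Ptgs1 and Ptgs2 (the cyclooxygenases COX-1 and COX-2), Ptges (microsomal prostaglandin E synthase), Hpgd (the dehydrogenase that inactivates prostaglandin E2), and Ptger2 and Ptger4 (its receptors EP2 and EP4). They were chosen by name, as 6 of the 19369 genes in the count tables, and all 6 were in the tables of every library. The measurements are single-cell transcript counts of 4T1 tumours, a triple-negative mouse mammary carcinoma model, grown in the mammary fat pad of female BALB/c mice that the labels give as 9-11 weeks old. One group held the parental line, and the other 5 each held 1 clone grown from a single 4T1 cell, named E, EM1, EM2, EM3 and M. The study describes the clones as covering epithelial, intermediate and mesenchymal states, without a state for each clone in the labels. Each group was a single tumour, sequenced as 2 libraries, a Total library of all its cells and a CD45 library of leukocytes caught on magnetic beads. The labels name no treatment. A difference between tumours therefore had no replicate check. It cannot be told apart from a difference between 2 mice, between 2 clones of the same kind or in how the tumours were processed. Such differences are given with 95% intervals that cover counting error only.

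Prostaglandin synthesis starts when a phospholipase frees arachidonic acid from membranes. A cyclooxygenase turns it into prostaglandin H2, and terminal synthases then turn that into prostaglandin E2, prostaglandin D2, prostacyclin or thromboxane. COX-1 is present in many resting cells, while COX-2 is the inducible enzyme, switched on by cytokines, growth factors and microbial products, and its activity is often raised in carcinomas. Prostaglandin E2 acts on neighbouring cells through a family of receptors, of which EP2 and EP4 raise cyclic AMP. In leukocytes these receptors are known for dampening cytotoxic T and NK cells, for shaping cytokine output of macrophages, and for supporting the migration of dendritic cells towards lymph nodes.

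The genes lie on 5 chromosomes of GRCm38, the assembly that the submitters' processing notes name as mm10. By the GENCODE annotation of that assembly, Ptgs2 spans chr1:150100031-150108227 on the plus strand and Ptgs1 spans chr2:36230426-36252272 on the plus strand. Ptges spans chr2:30889471-30929863 on the minus strand, Hpgd chr8:56294585-56321043 on the plus strand, Ptger2 chr14:44988195-45003820 on the plus strand and Ptger4 chr15:5206661-5244187 on the minus strand. The 250 bases before the RefSeq start of both cyclooxygenases and of Ptger4 are shown because these genes followed the most different patterns below: a gene raised in tumour cells and in part of the macrophages (Ptgs2), a macrophage gene with a narrower range between tumours (Ptgs1) and a gene highest in the dendritic cell class (Ptger4). Capitals mark matches to the searched letters, each on either strand. The windows are chr1:150099781-150100030 (plus) for Ptgs2, chr2:36230176-36230425 (plus) for Ptgs1 and chr15:5244188-5244437 (minus) for Ptger4.
Ptgs2: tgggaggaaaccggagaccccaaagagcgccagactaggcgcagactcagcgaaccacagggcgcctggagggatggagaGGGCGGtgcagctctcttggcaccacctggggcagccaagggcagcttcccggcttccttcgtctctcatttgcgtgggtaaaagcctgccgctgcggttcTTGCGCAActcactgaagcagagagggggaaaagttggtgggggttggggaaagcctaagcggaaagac
Ptgs1: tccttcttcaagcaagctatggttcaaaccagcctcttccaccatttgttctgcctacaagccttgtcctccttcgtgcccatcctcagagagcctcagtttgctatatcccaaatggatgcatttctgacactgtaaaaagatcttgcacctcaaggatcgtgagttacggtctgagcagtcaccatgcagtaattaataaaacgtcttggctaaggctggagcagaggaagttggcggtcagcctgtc
Ptger4: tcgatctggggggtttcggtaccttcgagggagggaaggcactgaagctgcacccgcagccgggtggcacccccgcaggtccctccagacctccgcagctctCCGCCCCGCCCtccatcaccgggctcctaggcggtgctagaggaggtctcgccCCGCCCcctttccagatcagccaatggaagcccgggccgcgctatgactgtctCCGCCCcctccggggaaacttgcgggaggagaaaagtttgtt
The letters searched are given with the share of 32851 RefSeq windows of this length that held them. TATAAA, for the core promoter box of that name, was in 12.4%. CACGTG, an E-box, was in 6.02%. CGTCA, from the cyclic AMP response element, was in 17.8%. TGANTCA, an AP-1 site, was in 6.75%. GGGCGG, the GC box, was in 32.7%. TTGCGCAA, a palindrome bound by C/EBP factors and added after the Ptgs2 window had been seen, was in 0.164%. The Ptgs2 window held a GC box at positions -170 to -165 before the start and the palindrome at -69 to -62. Positions count from the start that RefSeq and GENCODE both give for Ptgs2, and whether transcription starts there in these cells was not examined. Ptger4 held 4 GC boxes, 2 of which overlapped by 1 base, Ptges held 2, Hpgd held 1, and the windows of Ptgs1 and Ptger2 held none of the searched letters. The Ptges window, chr2:30903298-30903547 (minus), lies inside the GENCODE span of the gene given above and not at its end. The G and C content was 61.6% for Ptgs2, 59.6% for Ptges, 66.8% for Ptger4, 56.8% for Hpgd, 48% for Ptgs1 and 38% for Ptger2, beside a median of 52.4% over all windows. These matches describe the letters of the windows and were not tested against the expression data.

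The 12 libraries held 28083101 to 122055131 UMIs (unique molecular identifiers, each marking 1 counted molecule) in 6709 to 13467 cells. After 5167 of 115612 cells had been left out as doublets, levels were computed from 110445 cells as CPM, the UMIs of a gene per 1000000 UMIs summed over a class in a library. The classes are the submitters' own, from their cell table, and only those with 50 or more cells in a tumour were used. Defining genes were checked against the names: Krt8 had a median of 2392 CPM in tumour cells, Col1a1 53665 CPM in fibroblasts, C1qa 5317 CPM in macrophages and S100a9 90783 CPM in granulocytes of the CD45 libraries, and Ccr7 3291 CPM in dendritic cells (DC) of the CD45 libraries. C1qa did not set macrophages apart from the CD45 class annotated Other Myeloid, whose median was 5568 CPM. Median depth differed between classes, from 689 to 1220 UMIs per cell in CD45 granulocytes to 6509 to 15253 in tumour cells. Libraries of the same tumour shared 850 to 1732 of the 16-base barcodes that mark a gel bead, libraries of E and EM3 shared 1400 to 1760, those of EM1 and EM2 shared 818 to 1332, and other pairs shared 46 to 211. Whole barcodes, sample tag included, were shared by no cells between libraries of the same tumour, of E and EM3 or of EM1 and EM2. Between the other pairs they were shared by up to 189 cells. Whether tumours with many shared gel-bead barcodes were processed together was not tested, and neither was its part in the tumour differences.

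The 6 genes were divided among different cell classes. Ptgs2 and Ptges were highest in tumour cells and fibroblasts, Ptgs1 in macrophages and other myeloid cells, Ptger2 in granulocytes and T cells, and Ptger4 in dendritic cells, NK cells, T cells and B cells. Hpgd was scarce in every class, with its highest level in fibroblasts. Tumour cells, which held most of the Ptgs2 and Ptges molecules of 5 tumours, had almost no Ptger2, at 0.5 to 6.6 CPM, and 4.6 to 14.1 CPM of Ptger4.

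**Figure D1:**
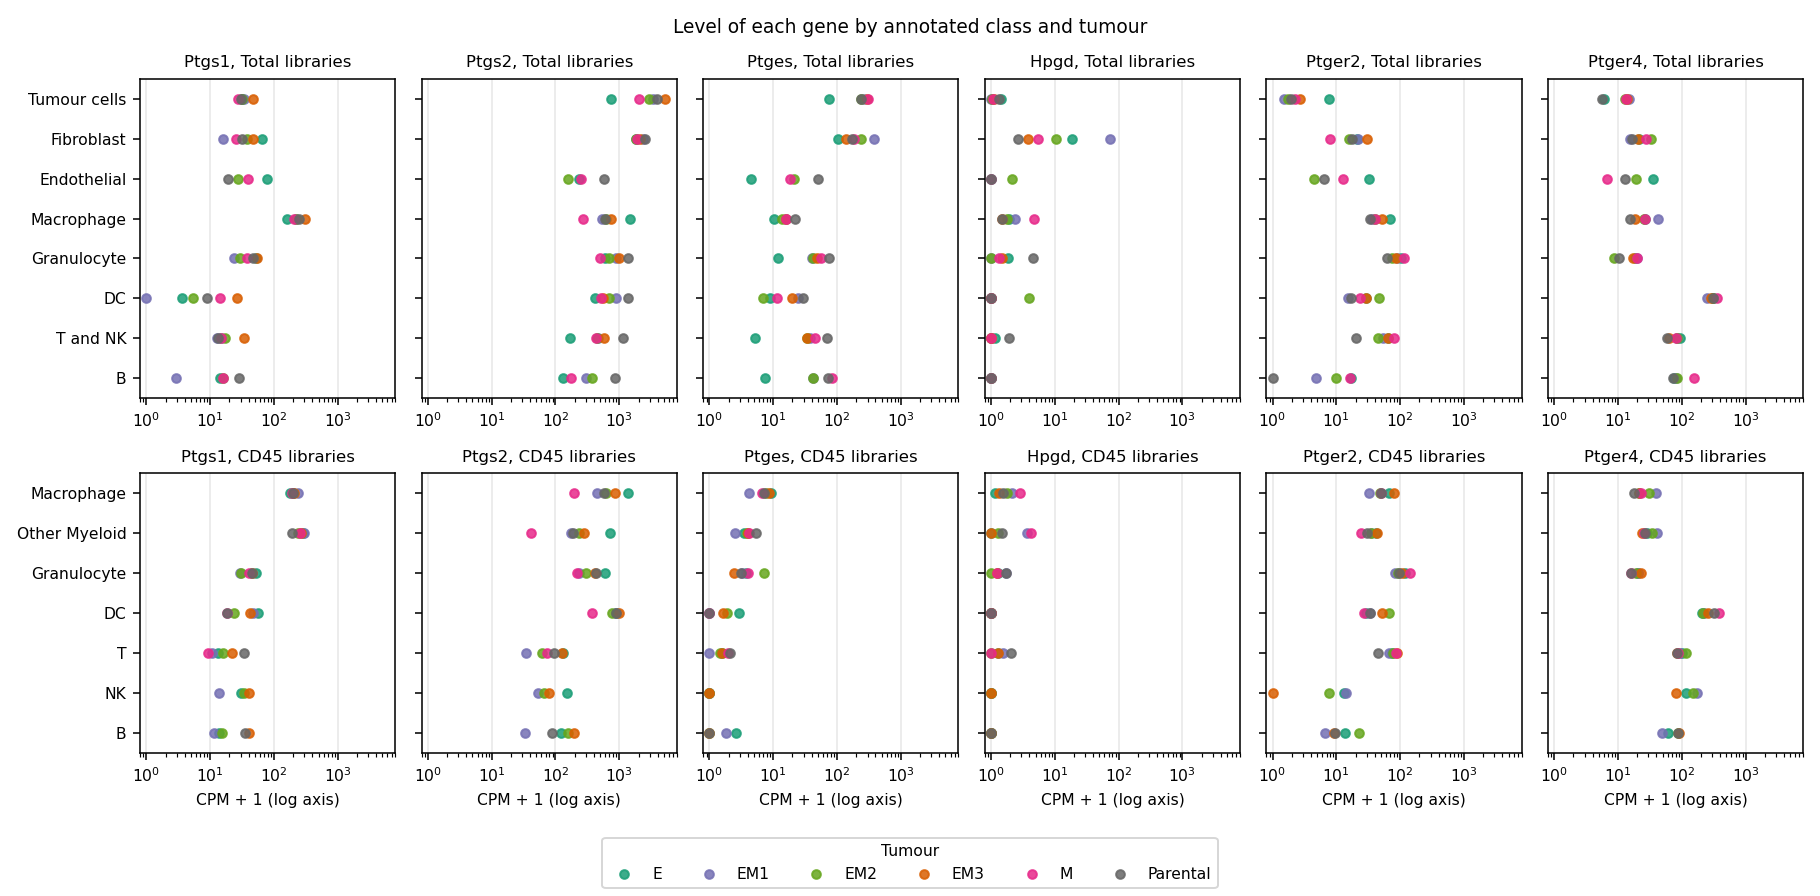
Level of each of the 6 genes in CPM plus 1 on a log axis, by annotated class (rows) in the Total libraries (top) and the CD45 libraries (bottom). Each point is 1 tumour, coloured by clone, and Ptgs2 in tumour cells runs from 731 to 5209.6 CPM while Ptger2 there stays at or under 6.6 CPM.

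Ptgs2, the inducible cyclooxygenase, was the most abundant of the 6 genes. In tumour cells of the Total libraries it stood at 731 CPM (E), 3417 (EM1), 2921 (EM2), 5209.6 (EM3), 2039.8 (M) and 3862 CPM (parental). E was the lowest and EM3 the highest, 7.13-fold above E (95% counting interval 6.9 to 7.37). The smallest of the 5 folds over E was that of M, 2.79-fold (2.7 to 2.89). The range from E to EM3, 2.82 on the log2 scale after 10 CPM had been added to each level, was wider than that of 98.9% of the genes with a mean of 10 CPM or more in tumour cells. In that class 4 of the 6 genes passed the same minimum. Of these, 2, Ptgs2 and Ptges, had a range of 1 or more on that log2 scale, beside 21.7% of all 8902 genes that passed. The tumour cells of E also differed in their epithelial markers, with Epcam at 1632 CPM against 5 to 254 CPM in the other 5 tumours, and in their median mitochondrial share, 1.79% of UMIs against 0.251% to 0.545%. The part of the mitochondrial share in the low Ptgs2 of E, and in its low Ptges and Pla2g4a below, was not tested.

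The share of tumour cells with at least 1 Ptgs2 UMI followed the same division. Without correction it was 64.1% of 729 cells in E (exact binomial interval 60.5% to 67.5%) and 94.2% to 98.6% in the other 5 tumours. Tumour cells of E had a median of 6509 UMIs and those of the others 9682 to 15253, so each cell was thinned to 1000 UMIs, which left out the shallower cells and kept 714 (E), 2774 (EM1), 3221 (EM2), 1918 (EM3), 4510 (M) and 5684 (parental). The thinned share was 30.1% in E (26.8% to 33.6%), 63.2% in M, 72% in both EM1 and EM2, 77% in EM3 and highest in the parental tumour at 79%. The tenth of tumour cells with the most Ptgs2 UMIs held 64.8% of the Ptgs2 UMIs of E, and 35.7% to 40.1% of those of the other 5 tumours. The Ptgs2 UMIs counted in E thereby lay in a smaller part of its tumour cells than in the other tumours. These shares are from unthinned counts, and E had the lowest depth and Ptgs2 level. The part of depth and level in its share was not tested. T and NK cells of the same Total libraries, taken as a class that should lack the gene, had thinned Ptgs2 shares of 14% (E), 29.9% (EM1), 35.7% (EM2), 47% (EM3), 26.5% (M) and 66.7% (parental), at median depths before thinning of 1098 to 2084 UMIs. The tumour cell share was above it in each of the 6 tumours, least so in the parental one, and a cell with no UMI at this depth is not shown to lack the transcript.

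Fibroblasts held Ptgs2 at a level that differed less between tumours than in tumour cells or macrophages. Values were 1850 CPM (E), 2347 (EM1), 1801 (EM2), 2128 (EM3), 1900.3 (M) and 2491 CPM (parental), over 52 to 229 cells each. The log2 range of 0.47 was narrower than in most genes of fibroblasts, whose median range was 0.75. Tumour cells and fibroblasts, the top of the order, were not separated: the log2 difference was 0.43 ± 0.33 (SE, tumour cells over fibroblasts, higher in 5 of 6 tumours, edgeR adjusted p = 0.228), in a comparison where 76.6% of all genes passed. Without the E tumour, where tumour cells were below fibroblasts, it was 0.65 (edgeR adjusted p = 0.00932), and with scaling factors from TMM (trimmed mean of M values) it was -0.02. Fibroblasts were above granulocytes, the next class of the Total libraries, by 1.42 ± 0.33 (edgeR adjusted p = 0.000268, 6 of 6 tumours, 63.0% of all genes called). Tumour marker transcripts were also present among the fibroblasts. In the 26 to 133 cells of a tumour with no UMI of Krt8, Krt18, Epcam or Krt7, Ptgs2 stood at 1115 CPM in E and 1715 to 2343 CPM in the others, so that without such cells the tumours lay further apart and E was the lowest.

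Macrophages gave another order of the tumours. In the CD45 libraries their Ptgs2 level was 1351 CPM (E), 443 (EM1), 626 (EM2), 865 (EM3), 195 (M) and 573 CPM (parental). E was the highest and M the lowest, with a ratio of 0.144 for M over E (95% counting interval 0.14 to 0.149). The Total libraries of the same tumours gave 1444, 534, 610.2, 745, 265 and 586 CPM, in the same order of the 6 tumours. The 2 libraries are preparations of 1 tumour and so repeat the measurement but not the tumour. Of the 4 genes that passed 10 CPM in CD45 macrophages, Ptgs2 and Ptger2 had a log2 range of 1 or more after 10 CPM had been added, beside 6.97% of 7765 genes. The log2 range of Ptgs2, 2.73, exceeded that of 99.7% of these genes.

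Every tumour other than E thus had more Ptgs2 than E in its tumour cells and less than E in its macrophages. All 5 of these differences share the E tumour as their reference. Macrophages were above tumour cells of the same Total library in E alone, at 1444 against 731 CPM. Averaged over tumours, tumour cells were above macrophages by a log2 difference of 1.93 ± 0.34 (SE, higher in 5 of 6 tumours, edgeR adjusted p = 3.72e-06, 78.8% of all genes called), and by 2.66 without the E tumour. The sources of the molecules changed with this: macrophages held 77.3% of all Ptgs2 UMIs of the E Total library and tumour cells 9.5%, whereas tumour cells held 80.8% to 93.7% in the other 5. Those shares also depend on how many cells of each class were captured, which was 729 tumour cells and 3679 macrophages in E.

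**Figure D2:**
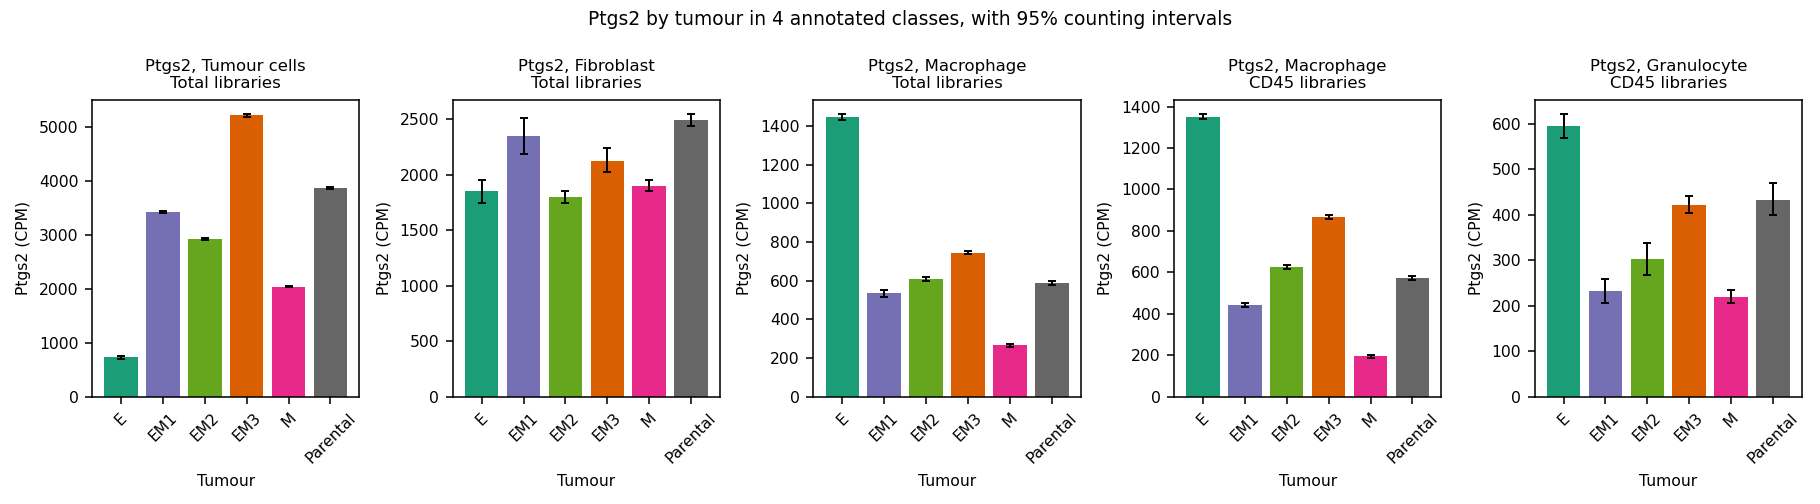
Ptgs2 in CPM by tumour in tumour cells, fibroblasts and macrophages of the Total libraries and in macrophages and granulocytes of the CD45 libraries. Bars are the level of 1 tumour and whiskers its 95% counting interval, with E the lowest in tumour cells and the highest in macrophages of both libraries.

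The thinned share of CD45 macrophages with a Ptgs2 UMI gave the same order of the 6 tumours as the level. This share is drawn from the same UMIs and falls when the level falls, so it does not show whether fewer cells held the transcript. After thinning to 1000 UMIs, 42.9% of CD45 macrophages of E had a Ptgs2 UMI (41.5% to 44.3%) and 10.4% of those of M (9.26% to 11.7%), with EM1 (20.8%), the parental tumour (22.1%), EM2 (25.6%) and EM3 (32%) between them. Thinning kept 2431 (M) to 4923 (E) macrophages of a library, and the unthinned shares were 68.8% in E and 23.7% in M. T cells of the same libraries, taken as a class that should lack the gene, had thinned shares of 13.7% (E), 2.9% (EM1), 4.7% (EM2), 12.2% (EM3), 3% (M) and 7.5% (parental), over the 427 to 1667 T cells of a library that were deep enough, at median depths before thinning of 979 to 1724 UMIs against 5103 to 7757 in macrophages. The macrophage share was above the T cell share in each of the 6 tumours. Ptgs2 was concentrated in part of the macrophages, since the tenth with most UMIs held 55.8% of the Ptgs2 UMIs in E and 62% to 87.5% in the others, the latter in M. These shares are from unthinned counts, lowest in E with the highest Ptgs2 level and highest in M with the lowest. The part of level and depth in them was not tested.

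Macrophages with Ptgs2 carried other transcripts of the inflammatory response. In cells with a UMI of Cxcl2, a neutrophil-attracting chemokine, Ptgs2 was 4.5 to 10.2 times as high as in cells without one, over the 6 CD45 libraries. The ratio was 3.94 to 6.5 for Il1b (interleukin-1 beta), 2.46 to 6.04 for Il6 and 1.51 to 2.84 for Il1a, above 1 in 6 of 6 tumours for each. Nfkbia, an inhibitor of NF-kappaB that is itself induced by it, gave 1.88 to 4.55, and Thbs1 (thrombospondin-1) gave 1.55 to 2.96. Tnf was on both sides of 1, at 0.7 to 2.3, as was Arg1 (arginase 1), at 0.66 to 1.06. The opposite held for 2 genes of tissue macrophages: the ratio was 0.11 to 0.57 for the complement gene C1qa and 0.15 to 0.53 for Mrc1, the mannose receptor CD206, under 1 in 6 of 6 tumours. Total libraries gave the same side of 1 in all 6 tumours for these 8 genes. Cells without C1qa had lower depth, a median of 2955 to 4689 UMIs against 5608 to 8730 with it, and the part of depth in these ratios was not tested. The pairing was not particular to macrophages. In CD45 granulocytes the Ptgs2 ratio was 1.6 to 3.34 for Cxcl2, 1.35 to 2.91 for Il1b, 1.2 to 2.38 for Il1a and 1.36 to 2.06 for Tnf. Each of these was above 1 in 6 of 6 tumours, and the other genes, C1qa and Mrc1 among them, were on both sides of 1.

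Tumours lay further apart among the macrophages that held C1qa. Among CD45 macrophages with a C1qa UMI, Ptgs2 was 1217 CPM (E), 366 (EM1), 513 (EM2), 799.8 (EM3), 109 (M) and 484 CPM (parental). Among those without a C1qa UMI it was 2119.7, 1776, 1783, 1642, 988 and 1799.9 CPM. The C1qa-negative cells of EM1, EM2, EM3 and the parental tumour lay within a narrow band below E, and M was the lowest in both sets. This split was made after the values had been seen and has no test. The macrophage class as a whole also differed in these genes between tumours: Il1b in CD45 macrophages was 6629 CPM (E), 4409 (EM1), 4097 (EM2), 5319 (EM3), 1678 (M) and 3441 CPM (parental), and C1qa was 3599 CPM in E against 4319 to 6501 CPM in the others.

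**Figure D3:**
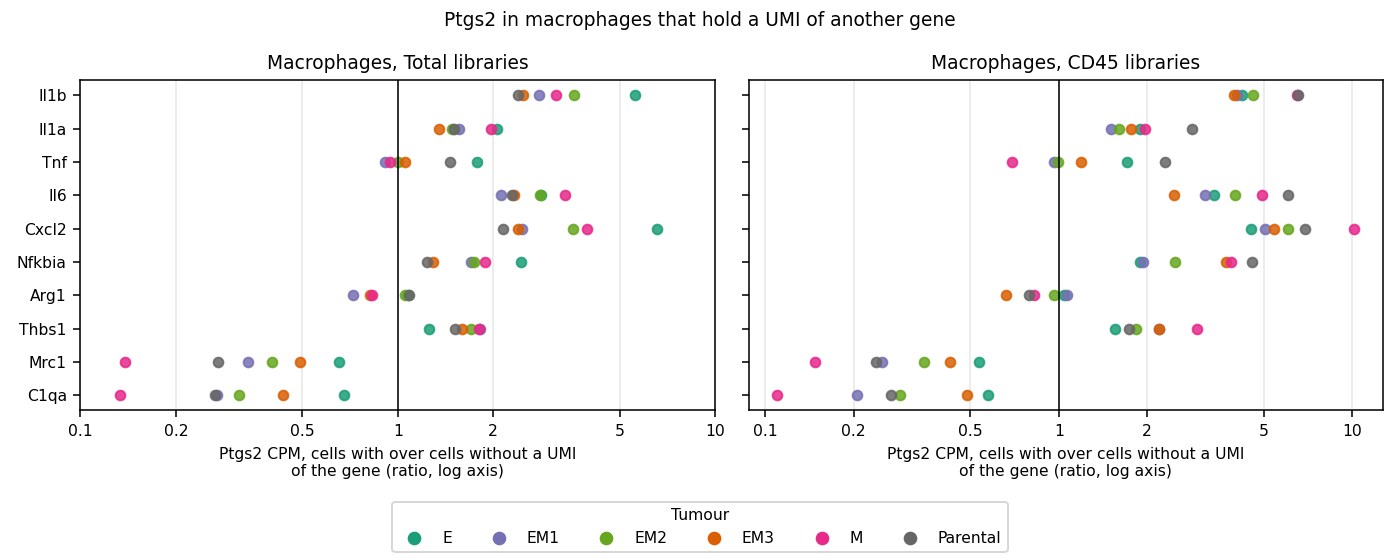
Ratio of Ptgs2 CPM in macrophages with a UMI of the gene in each row to macrophages without one, on a log axis, in the Total and CD45 libraries. Each point is 1 tumour, and the points of Cxcl2, Il1b and Il6 all lie above 1 while those of Mrc1 and C1qa all lie below it.

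Other myeloid cells also held Ptgs2. Dendritic cells of the CD45 libraries had 880 CPM (E), 877 (EM1), 758 (EM2), 980.2 (EM3), 373 (M) and 875 CPM (parental), so that M was low and the other 5 lay close together. They had the highest median of the CD45 classes, 876 CPM, but were not separated from macrophages (log2 0.43 ± 0.25, edgeR adjusted p = 0.157, higher in 5 of 6 tumours, 51.1% of all genes called). In the Total libraries E was the lowest at 409 CPM and M second lowest at 513 CPM, with 558 to 1349 CPM in the others, so that M was below E only in the CD45 libraries. Within the CD45 dendritic cells, those with a UMI of Cd209a, a gene of monocyte-related dendritic cells, had 1.88 to 9.44 times as much Ptgs2 as the rest, in 6 of 6 tumours, over 10 to 47 such cells. Those with a UMI of Xcr1, the receptor of conventional type 1 cells, had less in 5 of 6 tumours, with EM1 the exception at 898 against 870.1 CPM. Granulocytes of the CD45 libraries had 594 CPM (E), 232 (EM1), 302 (EM2), 422 (EM3), 219.8 (M) and 433 CPM (parental), with E highest and M lowest as in macrophages. In the Total libraries that order was lost, since granulocytes of the parental tumour were highest at 1358 CPM and those of E, at 590.3 CPM, were second lowest after M at 493 CPM. Total granulocytes also held the 4 tumour markers Krt8, Krt18, Epcam and Krt7, at a summed 281 to 1065 CPM (8.32% to 27.9% of the tumour cell level, most in the parental tumour) against 2.96 to 21.1 CPM with 3 or 4 detected in CD45 granulocytes, and their part in the Ptgs2 and Ptges levels of Total granulocytes, here and as the next class after fibroblasts, was not tested. CD45 macrophages were above CD45 granulocytes by 0.74 ± 0.25 (edgeR adjusted p = 0.00749, 5 of 6 tumours, 83.4% of all genes called). In the Total libraries these 2 classes were not separated (granulocytes over macrophages 0.08 ± 0.33, edgeR adjusted p = 0.84, higher in 5 of 6 tumours, 69.0% of all genes called). The class annotated Other Myeloid ranged most, from 704 CPM (E) to 39.7 CPM (M), with 171 to 283 CPM in the others. CD45 granulocytes were above it by 0.67 ± 0.26 (edgeR adjusted p = 0.0158, 5 of 6 tumours, 84.8% of all genes called).

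Lymphocytes held more Ptgs2 in the Total library than in the CD45 library in each of the 6 tumours, with the smallest gap in E. T and NK cells of the Total libraries had 166 CPM (E), 471 (EM1), 446 (EM2), 576 (EM3), 435 (M) and 1152 CPM (parental). T cells of the CD45 libraries had 129, 33, 61.5, 128, 72.5 and 92.1 CPM. The summed level of the tumour markers Krt8, Krt18, Epcam and Krt7 was likewise higher in the Total libraries. All 4 were detected in T and NK cells of each Total library, at 207 to 969 CPM, against 8.31 to 16.7 CPM with 2 to 4 of them detected in CD45 T cells. Set against tumour cells of the same tumour, Total T and NK cells held 4.61% to 25.4% of their tumour marker level, 5.66% to 29.2% of their Ptges and 11.1% to 29.8% of their Ptgs2. Across tumours the markers and Ptgs2 did not keep 1 order. Total T and NK cells of E had the lowest marker share, 4.61%, with 22.7% of the Ptgs2 level. Those of EM3 had the lowest marker sum, 207 CPM, with 576 CPM of Ptgs2. CD45 T cells held 0.19% to 0.824% of the tumour marker level and 0.966% to 17.6% of the Ptgs2 level, the latter in E. The fibroblast markers behaved alike, at 153 to 701 CPM in Total T and NK cells and 3.25 to 12.1 CPM in CD45 T cells. Their part in the leukocyte levels of the Total libraries was not tested, and leukocytes are described below from the CD45 libraries first.

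**Figure D4:**
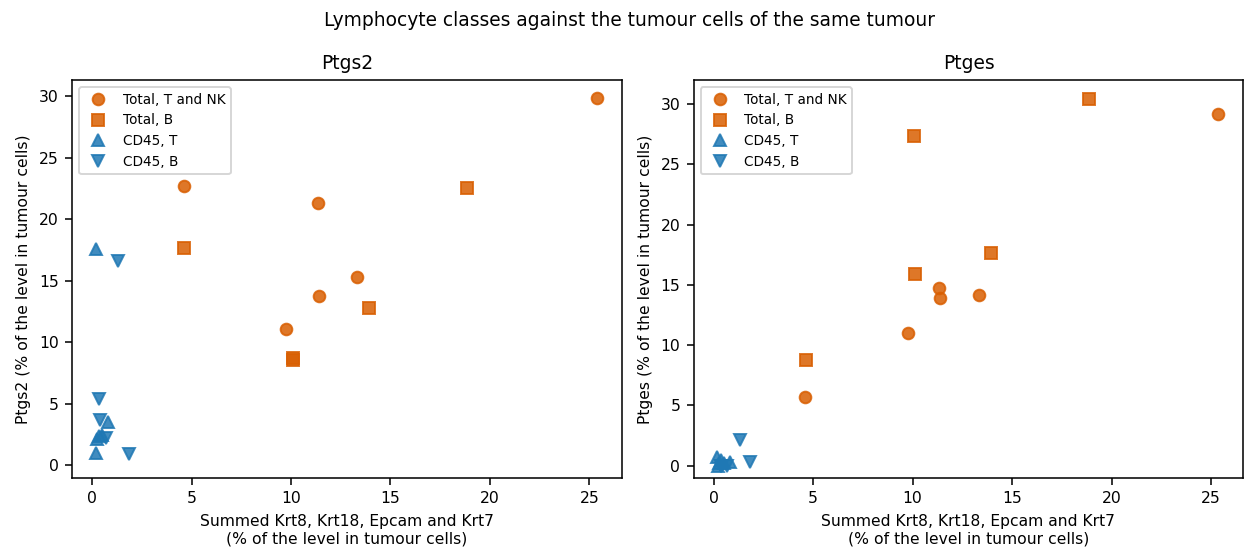
Ptgs2 (left) and Ptges (right) in lymphocyte classes as a percent of their level in tumour cells of the same tumour, against the summed Krt8, Krt18, Epcam and Krt7 level as a percent of that in tumour cells. Each point is 1 class of 1 tumour: T and NK cells of the Total libraries spread from 4.61% to 25.4% of the markers, and T cells of the CD45 libraries stay at or under 0.824%.

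Ptges, the synthase that works with COX-2, was a gene of tumour cells and fibroblasts. Tumour cells had 74.2 CPM (E), 260.2 (EM1), 235 (EM2), 294 (EM3), 305 (M) and 237 CPM (parental). E was the lowest as for Ptgs2, and the other 5 lay 3.17-fold to 4.11-fold above it (95% counting intervals together 2.86 to 4.57). M, which had the second lowest Ptgs2 in tumour cells, had the highest Ptges. Fibroblasts had 102 CPM (E), 373 (EM1), 238 (EM2), 137 (EM3), 181 (M) and 172 CPM (parental). Neither class was consistently above the other (log2 0.20 ± 0.24 for tumour cells over fibroblasts, 3 of 6 tumours, edgeR adjusted p = 0.447), and the sign turned with TMM scaling, at -0.28. Fibroblasts were above granulocytes, the next class, by 2.23 ± 0.27 (edgeR adjusted p = 2.16e-09, 6 of 6 tumours).

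Leukocytes of the CD45 libraries held almost no Ptges. Macrophages had the most, with 8.3 CPM (E), 3.2 (EM1), 6.6 (EM2), 7.5 (EM3), 5.7 (M) and 6.3 CPM (parental), and T cells had 0 to 1.1 CPM. No Ptges UMI was found in NK cells of the 4 CD45 libraries with enough of them, which allows up to 17.9 to 23.6 CPM, nor in 3017 T cells of EM1, which allows up to 0.78 CPM (3 counts of the summed UMIs). In tumour cells Ptges was found beside Ptgs2 about as often as, or slightly more often than, their separate shares give. After thinning to 1000 UMIs both were seen in 1.82% of cells in E, where the product of the shares was 1.9%. In the other 5 tumours both were seen in 14.9% to 18.5% of cells, where the products were 13.7% to 17.3%, with the joint share above the product in each. At 2000 UMIs the joint share was above the product in every tumour, with 6.13% against 5.09% in E. This excess was not tested.

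Ptgs1, the constitutive cyclooxygenase, was highest in macrophages and other myeloid cells, and its range between tumours depended on the library. CD45 macrophages had 177 CPM (E), 234 (EM1), 201 (EM2), 208 (EM3), 192 (M) and 194 CPM (parental), a log2 range of 0.38 where the median gene of that class had 0.4. The Total libraries gave 162, 225, 217, 303, 204 and 242 CPM, a log2 range of 0.87 that was wider than in 88.2% of genes (median 0.43), from E to EM3. Macrophages were above granulocytes, the next class, by 2.50 ± 0.24 in the Total libraries (edgeR adjusted p = 8.02e-12, 69.0% of all genes called) and by 2.33 ± 0.19 in the CD45 libraries (edgeR adjusted p = 9.36e-14), in 6 of 6 tumours of both kinds. Other Myeloid cells had 193 to 296 CPM and were not separated from macrophages (0.33 ± 0.17, edgeR adjusted p = 0.11, higher in 5 of 6 tumours, 41.5% of all genes called). Granulocytes, fibroblasts, endothelial cells and tumour cells followed at medians of 41.3, 33.9, 32.3 and 30.5 CPM in the Total libraries, and no neighbouring pair of these 4 differed past the threshold. In macrophages of both libraries Ptgs1 had a narrower range between tumours than Ptgs2, whose log2 range was 2.73 in the CD45 libraries and 2.40 in the Total libraries.

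Hpgd, whose enzyme oxidises prostaglandin E2 to an inactive ketone, was near the limit of detection. Fibroblasts had 17.5 CPM (E), 73.3 (EM1), 9.5 (EM2), 2.8 (EM3), 4.5 (M) and 1.6 CPM (parental). These levels rested on few cells, since EM1 had 25 UMIs in 3 of 52 fibroblasts, 19 of them in a single cell, and the other tumours had 2 to 24 UMIs in 2 to 11 cells. In tumour cells Hpgd was 0 to 0.4 CPM and in CD45 macrophages 0.1 to 1.8 CPM. No Hpgd UMI was found in CD45 dendritic cells of any of the 6 tumours, which allows up to 1.9 to 6.47 CPM. Hpgd was too low to be tested by edgeR in either kind of library.

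Ptger2, the gene of the EP2 receptor, was led by granulocytes and T cells. CD45 granulocytes had 118 CPM (E), 82.2 (EM1), 91.5 (EM2), 107 (EM3), 141 (M) and 94 CPM (parental). CD45 T cells had 72.9 (E), 66 (EM1), 77.1 (EM2), 86.5 (EM3), 85.5 (M) and 43.3 CPM (parental), the last the lowest. Granulocytes were above T cells in 6 of 6 tumours (log2 0.56 ± 0.16, edgeR adjusted p = 0.00187, in a comparison where 88.3% of all genes passed) and T cells above macrophages in 5 of 6 (0.45 ± 0.16, edgeR adjusted p = 0.00959), a step that was not separated in the Total libraries (T and NK cells over macrophages 0.28 ± 0.26, edgeR adjusted p = 0.339, 4 of 6 tumours, 71.9% of all genes called). In the Total libraries granulocytes were above T and NK cells by 0.72 ± 0.28 (edgeR adjusted p = 0.0189, 70.0% of all genes called), and the difference was 1.48 with TMM scaling and 1.66 with DESeq2. This call was lost without the parental tumour (0.0663 for the same adjusted p from edgeR) and with at least 650 genes per cell (0.057). CD45 macrophages had 66.1 CPM (E), 31.7 (EM1), 47.6 (EM2), 80 (EM3), 48.9 (M) and 49 CPM (parental), so that EM3 and E, the 2 tumours with most macrophage Ptgs2, also had most Ptger2 there. Libraries of E and EM3 also shared 1400 to 1760 gel-bead barcodes, and the part of shared processing in this likeness was not tested. NK and B cells were at the bottom, with 0 to 13 and 5.5 to 21.4 CPM.

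Among T cells, Ptger2 was higher in the Cd44+ than in the Cd44- Cd4+ subtype and higher in the Gzmb+ than in the Lef1+ Cd8+ subtype. The authors' subtype with Cd44, a marker of activated and memory cells, Cd44+ Cd4+ T, had 125 CPM (E), 97 (EM1), 161 (EM2), 121 (EM3), 103 (M) and 115 CPM (parental). The Cd44- Cd4+ subtype had 12.2 to 22.2 CPM in the 5 tumours with 50 or more such cells, below the Cd44+ subtype in each. Gzmb+ Cd8+ cells, named for the cytotoxic protease granzyme B, had 98.5 (E), 141 (EM1), 158 (EM2), 130.1 (EM3) and 47.4 CPM (M), and Lef1+ Cd8+ cells, named for a factor of naive and early memory cells, had 14.4, 20.1, 34, 42.6 and 8.2 CPM. Regulatory T cells, annotated Foxp3+ Cd4+, had 71.5 to 121 CPM, and the cycling subtype Mki67+ Cd8/Cd4 T had 46.8 to 60.1 CPM in the 4 tumours with 50 or more such cells. The subtypes were defined from the same cells' expression, so these levels are a description, and in M the Gzmb+ Cd8+ value, from 63 cells, has a counting interval of 15.4 to 111 CPM that overlaps that of Lef1+ Cd8+ cells.

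**Figure D5:**
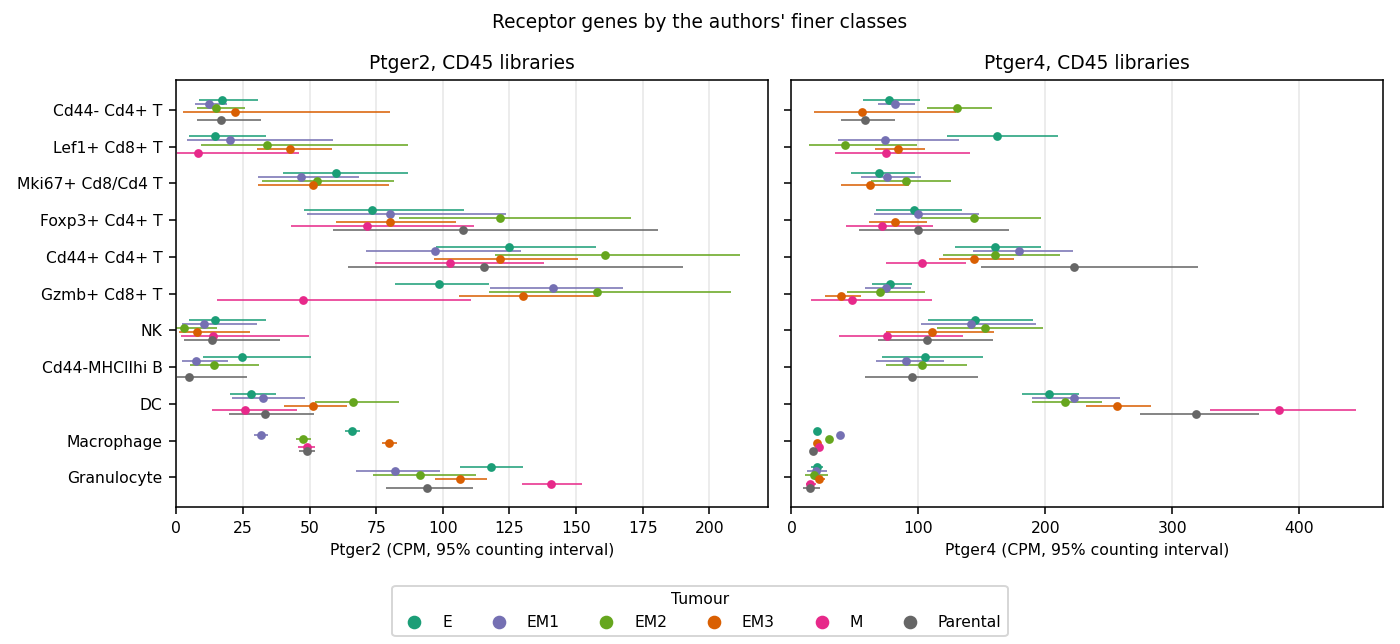
Ptger2 (left) and Ptger4 (right) in CPM in the authors' finer classes of the CD45 libraries. Each point is 1 tumour with its 95% counting interval, and Ptger2 separates Cd44+ Cd4+ cells (97 to 161 CPM) from Cd44- Cd4+ cells (12.2 to 22.2 CPM), whereas Ptger4 is highest in dendritic cells (203 to 384 CPM).

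Ptger4, the gene of the EP4 receptor, was highest in dendritic cells. Their CD45 levels were 203 CPM (E), 222 (EM1), 216 (EM2), 257 (EM3), 384 (M) and 319 CPM (parental), over 85 to 294 cells each. The Total libraries gave 310.3, 246, 308, 282.5, 358 and 308 CPM, with M again highest but E no longer lowest. Dendritic cells were above T and NK cells by 2.01 ± 0.21 (edgeR adjusted p = 1.02e-10, 6 of 6 tumours, 62.5% of all genes called) and above B cells by 1.85 (edgeR adjusted p = 6.93e-08, 47.8% of all genes called). In the CD45 libraries they were above NK cells, the next class, by 1.05 ± 0.26 (edgeR adjusted p = 0.00103, in each of the 4 tumours with enough NK cells, 45.2% of all genes called). Next came NK, T and B cells, at medians of 132, 89.1 and 85.7 CPM, of which neighbouring pairs were not separated (NK over T 0.45 ± 0.27, edgeR adjusted p = 0.333, 12.7% of all genes called, and T over B 0.52 ± 0.22, edgeR adjusted p = 0.0562, 43.3% of all genes called), while B cells were below NK cells (B over NK -0.96 ± 0.31, edgeR adjusted p = 0.0178, lower in 3 of 4 tumours, 25.3% of all genes called). Among the authors' finer classes, plasma cells had 10.6 CPM in the 1 tumour with enough of them. Cd44-MHCIIhi B cells had 90.4 to 105 CPM in 4 tumours. The part of plasma cells in the B class level was not tested. Macrophages had 17.1 to 38.3 CPM and granulocytes 14.7 to 21.8 CPM.

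Ptger4 was higher in the dendritic cells that also held Ccr7, the chemokine receptor of migrating cells. In the CD45 libraries, cells with a Ccr7 UMI had 259 CPM (E), 233 (EM1), 254 (EM2), 305 (EM3), 489 (M) and 372 CPM (parental), and cells without one had 101, 185, 86.3, 131, 166 and 117 CPM. The ratio was 1.26 to 3.19 in the CD45 libraries and 1.31 to 4.98 in the Total libraries, above 1 in 6 of 6 tumours in both. Cells without a Ccr7 UMI numbered 26 to 97 in the CD45 libraries and gave 14 to 56 Ptger4 UMIs, so the single ratios are imprecise. Their Ptger4 levels overlapped those of CD45 NK cells, 78.8 to 175 CPM, and T cells, 82.5 to 116 CPM. The lead of dendritic cells thus held for the class as a whole and not for those without a Ccr7 UMI. Ptger4 was 103 to 223 CPM in Cd44+ Cd4+ cells and 55.5 to 130.3 CPM in Cd44- Cd4+ cells, with the first above the second in the 5 tumours that had both.

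The genes most like each of the 6 across 45 class sums of the Total libraries were named by Pearson's r, as a description over sums that share libraries and classes. For Ptgs1 these were Lamp1 (r = 0.90), a lysosomal membrane protein, Samd8 (0.88) and Tpp1 (0.87), a lysosomal protease, and over 39 sums of the CD45 libraries r was 0.94, 0.82 and 0.91. For Ptger4 they were Ccr7 (0.93), Dapp1 (0.91) and Fnbp1 (0.91), with 0.90, 0.92 and 0.93 in the CD45 libraries. For Ptgs2 they were Ncs1 (0.89), Gpc1 (0.87) and Phlda1 (0.84), and for Ptges Tpbg (0.96), a row whose retired identifier is that of Htra1 (0.95) and Htra1 itself (0.94). Those of Ptgs2 and Ptges had lower values in the CD45 libraries, which hold no sums of tumour cells, fibroblasts or endothelial cells, with r of 0.30 to 0.45 for Ptgs2 and -0.17 to 0.41 for Ptges. Ptger2 was nearest to Ppp1r3b (0.90), Fxyd5 (0.87) and Tnfsf14 (0.86), with 0.25, 0.60 and 0.55 in the CD45 libraries. The neighbours of Hpgd, Reg3g (0.93), Col28a1 (0.82) and Sbsn (0.82), fell to -0.12 to 0.11 in the CD45 libraries, where Hpgd was at 3.2 CPM or less. The highest Hpgd level in the Total libraries is that of the EM1 fibroblasts, of whose 25 UMIs 19 are in a single cell, so this likeness may be that of 1 cell.

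The other genes of eicosanoid synthesis and signalling, a list of 25, were divided among the same classes, and 14 of them reached a median of 50 CPM in some class of the Total libraries. Upstream of the cyclooxygenases, Pla2g4a, the cytosolic phospholipase that frees arachidonic acid, was 36.7 CPM in tumour cells of E and 93 to 111 CPM in those of the other 5, the side on which E also lay for Ptgs2 and Ptges. Its level in tumour cells and macrophages was not separated (edgeR adjusted p = 0.162). Slco2a1, the transporter that takes prostaglandins into cells, was a tumour cell gene, at 939.5 CPM (E), 734 (EM1), 982 (EM2), 854 (EM3), 559.9 (M) and 812.5 CPM (parental), above endothelial cells by a log2 difference of 2.24 (edgeR, written as endothelial over tumour cells, -2.24 with adjusted p = 1.28e-09, 54.7% of all genes called), and at most 2.46 CPM in CD45 T cells. Ptges3, a co-chaperone that also has prostaglandin E synthase activity, was 170 to 274 CPM in tumour cells.

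Synthases of the other prostanoids were led by classes other than tumour cells. Ptgis, prostacyclin synthase, was a fibroblast gene at 85.1 to 221 CPM, and fibroblasts were above granulocytes by 5.57 (edgeR adjusted p = 2.76e-18). Tbxas1, thromboxane synthase, was 233 to 385 CPM in CD45 macrophages and was not separated between dendritic cells and macrophages of the Total libraries (edgeR adjusted p = 0.409, 37.3% of all genes called). Hpgds, the haematopoietic prostaglandin D synthase, was 37 (E), 107 (EM1), 110.2 (EM2), 49.2 (EM3), 121 (M) and 82.5 CPM (parental) in CD45 macrophages, so that E and EM3, the tumours highest in macrophage Ptgs2, were lowest in Hpgds. E and EM3 are also the pair of tumours whose libraries shared the most gel-bead barcodes, whose part in this was not tested. Ptgr1, a reductase that inactivates prostaglandins and leukotriene B4, was 99.1 to 176 CPM in CD45 macrophages, and Pla2g7, a phospholipase that cleaves platelet-activating factor, was 989 to 1519 CPM there. Tbxa2r, the thromboxane receptor, led in the B class of the Total libraries, at a median of 57.4 CPM and above T and NK cells by 2.13 (edgeR adjusted p = 8.09e-05, 29.9% of all genes called). In the CD45 libraries Tbxa2r was instead highest in T cells, at a median of 21.3 CPM against 13.5 CPM in B cells, with B over T at -1.0 (edgeR adjusted p = 0.018, 1 of 5 tumours).

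Of the leukotriene genes, Alox5ap, Alox5 and Ltb4r1 were highest in granulocytes, while Ltc4s and Lta4h were not. Alox5ap, which presents arachidonic acid to 5-lipoxygenase, was 1053 to 1513 CPM in CD45 granulocytes and above macrophages by 1.31 (edgeR adjusted p = 1.52e-08, 6 of 6 tumours). Alox5 itself was 108 to 179 CPM and above Other Myeloid cells by 1.89 (edgeR adjusted p = 2.48e-10), and Ltb4r1, the leukotriene B4 receptor, was 61.6 to 157 CPM. Ltc4s, the leukotriene C4 synthase, led in macrophages of the Total libraries at 27.3 to 92.5 CPM, and Lta4h was spread over classes, with T and NK cells highest at 78.8 to 97.5 CPM. Of the 21 list genes tested between macrophages and tumour cells of the Total libraries, 13 were higher in macrophages and 6 in tumour cells, with a median log2 difference of 1.53, beside 78.8% of all genes called and a median over all genes of 0.39 towards tumour cells. Between CD45 macrophages and T cells, 11 of 17 tested were higher in macrophages and 6 in T cells, beside 83.3% of all genes called.

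All class comparisons above set sums of 4 to 6 tumours against each other with the tumour as a block. The classes were defined by the authors from the expression of the same cells, so a difference between classes is not independent of how they were drawn. Log2 differences were scaled by the summed UMIs, on which scale the median of all genes was 0.59 for tumour cells over fibroblasts, 0.39 for tumour cells over macrophages, 0.26 for macrophages over granulocytes, -0.78 for granulocytes over T and NK cells, -0.69 for dendritic cells over T and NK cells and -0.54 for dendritic cells over B cells. Relative to these medians, the differences of Ptgs1 in macrophages, Ptger4 in dendritic cells and Ptger2 in granulocytes kept their direction, and so did Ptgs2 in tumour cells over macrophages, whereas those of Ptgs2 and Ptges in tumour cells over fibroblasts turned. The medians are from the Total libraries and were not taken for the CD45 libraries. The CD45 difference of Ptger2 in T cells over macrophages was therefore not set against one.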

How the data were processed

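Tumours were digested and leukocytes enriched on CD45 beads, and per the labels' protocols cells were fixed with a fixed-RNA kit and libraries made with 3' reagents, so that the chemistry is not settled. Per the submitters' processing notes Cell Ranger and mm10 were used, with no version given. The authors' deposited count tables give, for each filtered cell, unnormalized UMI counts by gene, and a second deposited table gives the authors' classes, UMI and gene counts, and the mitochondrial percent of each cell. No column was left unmapped (0).

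Doublets (4.47% of cells, 3.28% to 5.89% per library) were called with Scrublet in scanpy 1.11.5 (expected share 6%, 2 simulated pairs per cell, 30 components) at 1 score limit for all libraries, the median of their automatic limits, a rule set after the scores had been seen. Counts were summed by tumour and class (50 cells or more, in at least 4 tumours) and compared between classes in edgeR 4.0.16 by the quasi-likelihood test, with the tumour as a block, scaling by summed UMIs, and Benjamini-Hochberg adjustment over all genes of a class pair (12580 genes in 45 sums of Total libraries, 10658 in 39 of CD45 libraries), at a threshold of 0.05. On simulated counts for T and NK cells against macrophages (10967 genes), 59 of 100 genes changed 2-fold and 100 of 100 changed 4-fold were recovered, and 8 unchanged genes were called. The simulation held only these classes, drawn from 1 profile without a tumour effect. It therefore does not give the recovery in the real fits. Between tumours no test was possible, as each group has 1. Their ratios have exact conditional intervals and their ranges add 10 CPM before log2. Intervals and the floor of 3 counts cover counting error only, at 95%. Alternatives were DESeq2 1.42.0, TMM scaling, no filter on low counts, doublets kept, at least 650 genes per cell, each tumour left out, the other library, the mean over cells, a pseudocount of 1 CPM and thinning to 2000 UMIs.

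The 6 genes and all lists were chosen with earlier results of these data known. Named besides the 6 were list genes with a median of 50 CPM or more in some class, the 3 genes most like each, and 10 inflammatory genes fixed for the macrophage and granulocyte splits. Splits by marker UMIs and the T subtypes are descriptions, and Cd209a, Xcr1, Ccr7 and Alox15 were picked after their values were seen. RefSeq windows were taken from GRCm38.p6.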

Additional observations from a re-analysis of the deposited data

Results flagged for a closer look

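Ptgs2 differed from E in opposite directions in tumour cells and in macrophages. In tumour cells all 5 other tumours were above E, by ratios of 2.79 to 7.13. In macrophages all 5 were below it, by ratios of 0.184 to 0.516 in the Total libraries and 0.144 to 0.64 in the CD45 libraries. The difference between these directions was not tested, since each tumour was measured once, and the 5 ratios share the E tumour as their reference.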

How the results depend on the processing

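Of 152 recomputed values, 122 kept their direction and their side of the threshold or stayed within counting error. Ptgs2 in tumour cells over fibroblasts turned to -0.019 with TMM scaling and -0.29 with DESeq2, and Ptges to -0.28 and -0.57. Leaving out 1 tumour gave 0.21 to 0.65 for Ptgs2 (stronger without E) and 0.03 to 0.36 for Ptges, 1.70 to 2.66 for Ptgs2 in tumour cells over macrophages (2.66 without E), 2.38 to 2.67 for Ptgs1 in macrophages over granulocytes, 0.62 to 0.79 for Ptger2 in granulocytes over T and NK cells (not called without the parental tumour) and 0.86 to 1.09 over macrophages, 1.93 to 2.07 for Ptger4 in dendritic cells over T and NK cells and 1.80 to 1.95 over B cells. The Ptger2 difference of granulocytes over T and NK cells fell to 0.62 with at least 650 genes per cell and was then not called, and rose to 1.48 with TMM scaling and 1.66 with DESeq2. The cause of these changes was not tested.

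Between tumours, on the log2((CPM + 10) ratio) scale, Ptgs2 of EM3 over E in tumour cells was 2.82 and became 2.74 with doublets kept, 3.23 with TMM scaling and 2.68 as a mean over cells. That of M over E was 1.47 and became 1.38, 1.82 and 1.34 in the same order, and Ptges of M over E, 1.90, became 2.22 with TMM scaling. Ptgs2 of M over E in CD45 macrophages was -2.73 and became -3.02 with TMM scaling, -2.20 as a mean over cells, -2.79 with a pseudocount of 1 CPM and -2.40 in the Total libraries, and in granulocytes it was -1.39 and became -1.68 with at least 650 genes per cell and -0.25 in the Total libraries. In dendritic cells Ptgs2 of M over E reversed, from -1.22 to 0.32 in the Total libraries, and Ptgs1 of M over E in CD45 macrophages, 0.11, reversed to -0.17 with TMM scaling. Thinning to 2000 UMIs in place of 1000 raised the shares of macrophages with Ptgs2 to 14.6% in M and 53.6% in E, and those of tumour cells to 42% in E and 84.6% in EM3, in the same order. Fibroblasts without tumour marker UMIs, an alternative added after seeing the data, kept the medians of Ptgs2 and Ptges within 1 SD, but lowered Ptgs2 in E from 1850 to 1115 CPM. Class comparisons were paired, with the tumour as a block. Between tumours, no paired analysis was possible because the labels give no replicate numbers and each group has 1 tumour. Depth sets only an upper limit where no UMI was found, as for Ptges in CD45 NK cells and Hpgd in CD45 dendritic cells.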

Other observations

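Alox15, the 12/15-lipoxygenase that makes other arachidonic acid products and did not reach the level set for naming, was uneven between tumours in macrophages, and is named here after its values had been seen. CD45 macrophages had 8.6 CPM (E), 4.2 (EM1), 7.9 (EM2), 84.8 (EM3), 16.7 (M) and 43.1 CPM (parental). The Total libraries gave 7.8, 3.4, 19.2, 146 and 31.2 CPM in the clones in that order and 64.8 CPM in the parental tumour. EM3 was highest and EM1 lowest in both.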
